A study of Mus musculus with 4 samples.

Results

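The genes described are 10 CC chemokine genes linked to monocyte traffic, 8 ligands (Ccl2, Ccl7, Ccl12, Ccl8, Ccl6, Ccl9, Ccl3 and Ccl4) and 2 receptors (Ccr2 and Ccr1), taken by symbol from the 32287 features of each deposited matrix. Their counts were summed by cell class and library in mouse hearts. RNA of single cells was measured in 4 libraries, 1 per group: deletion-labelled hearts after infarction, control hearts after infarction, deletion-labelled uninjured hearts and control uninjured hearts. Control hearts carried Tcf21-MerCreMer, a tamoxifen-inducible Cre recombinase driven by the Tcf21 gene, a transcription factor gene of cardiac fibroblasts. Deletion-labelled hearts carried Tcf21-MerCreMer:flox, in which Tcf21 was to be deleted in fibroblasts. All hearts had received tamoxifen, the infarction hearts were taken 3 days after myocardial infarction, and live nucleated cells of the digested tissue were sorted without selection for a cell type. The labels give neither the floxed part of the gene nor the number or age of the animals. With 1 library per group no test was possible and no p-value is given, so the intervals are 95% intervals for counting error only and the spread between animals is unknown. The intervals of levels and of ratios leave out the spread between cells as well.

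CC chemokines are small secreted proteins that bind to matrix and steer leukocytes through receptors on the cell surface. Classical monocytes leave the bone marrow and enter injured tissue through the receptor Ccr2, whose ligands in the mouse include Ccl2, Ccl7 and Ccl12. Mouse Ccl8 acts through another receptor, Ccr8, while Ccl3, Ccl6 and Ccl9 bind Ccr1. In the infarcted heart, monocytes that entered from blood replace or outnumber resident macrophages and mature into macrophages, some of which carry Gpnmb, a gene of lipid- and debris-handling macrophages.

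All 8 ligand genes lie on chromosome 11 of mm10 (GRCm38). Ccl2, Ccl7, Ccl12 and Ccl8 occupy 81.2 kb (82035571 to 82116799), and Ccl9, Ccl6, Ccl3 and Ccl4 occupy 91.8 kb (83572919 to 83664683). Both receptor genes lie within 151.4 kb of chromosome 9 (123962124 to 124113557). The family is named for a pair of adjacent cysteines near the start of the mature protein. The codons of that pair are shown in capitals in the 48 coding bases around them, read from the GENCODE transcripts, because they let the ligands be lined up and compared by eye.
Ccl2: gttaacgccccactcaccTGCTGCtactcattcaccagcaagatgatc
Ccl7: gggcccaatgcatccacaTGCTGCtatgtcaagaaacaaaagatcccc
Ccl12: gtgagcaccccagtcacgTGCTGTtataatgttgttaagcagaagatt
Ccl8: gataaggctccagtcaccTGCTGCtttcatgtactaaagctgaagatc
Ccl6: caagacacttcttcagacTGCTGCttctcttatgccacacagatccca
Ccl9: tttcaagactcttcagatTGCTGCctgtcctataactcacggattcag
Ccl3: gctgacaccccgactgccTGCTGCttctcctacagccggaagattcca
Ccl4: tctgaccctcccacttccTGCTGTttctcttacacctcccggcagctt

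Each ligand held such a pair of codons. Over the whole coding sequence the most alike pairs were Ccl3 with Ccl4 at 68.1% identity, Ccl6 with Ccl9 at 65.8% and Ccl8 with Ccl12 at 65.1%. The longest run of identical bases between transcripts of any 2 ligands was 25 bases, shared by Ccl6 and Ccl9, and Ccl2 and Ccl7 shared 23. The receptors Ccr1 and Ccr2 were 60.8% identical, with a longest shared run of 15 bases. Counts are 3′ end UMIs, distinct RNA molecules per gene, and levels are given as CPM, the gene's UMIs per 1000000 UMIs of the class sum. CPM is not set per transcript length, so levels are compared between cells for 1 gene and not between genes.

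The libraries held between 55710468 and 129704045 UMIs over 9149 to 11541 barcodes, 8289 to 10142 cells were kept in each, and any 2 libraries shared between 19 and 41 barcodes. Cell classes were named from marker lists, so every name below means cells like that type. Classical monocytes numbered 1473 in the deletion-labelled and 1720 in the control library after infarction, against 2 in each uninjured library. Macrophages with Gpnmb numbered 657 in the deletion-labelled and 853 in the control library after infarction, and 4 in each uninjured library. Resident macrophages, marked by Lyve1 and Folr2, numbered 16 in the deletion-labelled and 1 in the control library after infarction, against 375 in the deletion-labelled and 551 in the control uninjured library. With the libraries clustered together, infarction and uninjured hearts therefore had almost no mononuclear phagocyte class in common, and no resident macrophage value is given after infarction. The split depended on the clustering. With each library clustered alone, 314 cells of the control infarction library took the resident macrophage name and none took the Gpnmb name. A phagocyte cluster led by Saa3, Marco and Alox15 had 206 cells in the deletion-labelled and 268 in the control library after infarction. Its best match was the classical monocyte list, but only at a mean difference in share of cells of 0.14. None of that list's markers was among the cluster's 10 leading genes. It is therefore called the unnamed phagocytes. Tcf21 in fibroblasts went against the genotype label: it stood at 32.6 CPM (30.7 to 34.6) in the deletion-labelled and 22.4 CPM (20.7 to 24.2) in the control library after infarction. In uninjured hearts it stood at 145.6 CPM (141.1 to 150.1) in the deletion-labelled and 95.1 CPM (90.9 to 99.4) in the control library. Counts of 3′ ends may not show a deletion elsewhere in the gene, so these values do not settle whether it was deleted. The genotype is therefore written as deletion-labelled throughout.

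After infarction, 7 of the 10 genes were highest in a mononuclear phagocyte class in both libraries: Ccl2, Ccl7 and Ccr2 in classical monocytes, Ccl8 and Ccl12 in Gpnmb macrophages, and Ccl6 in the unnamed phagocytes. Ccl9, the seventh, was highest in the unnamed phagocytes of the deletion-labelled library and in classical monocytes of the control library. The remaining genes, Ccl3, Ccl4 and Ccr1, were highest in neutrophils in both libraries, except that Ccl4 in the deletion-labelled library stood at 555 CPM (536 to 576) in dendritic cells and at 522 CPM (507 to 538) in neutrophils, with overlapping intervals. In uninjured hearts, 5 of the genes (Ccl2, Ccl7, Ccl12, Ccl8 and Ccl9) were highest in resident macrophages in both libraries. The shares of all features highest in these classes were not counted, so neither number has a background beside it. Several of the classes compared after infarction were phagocyte classes.

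**Figure D1:**
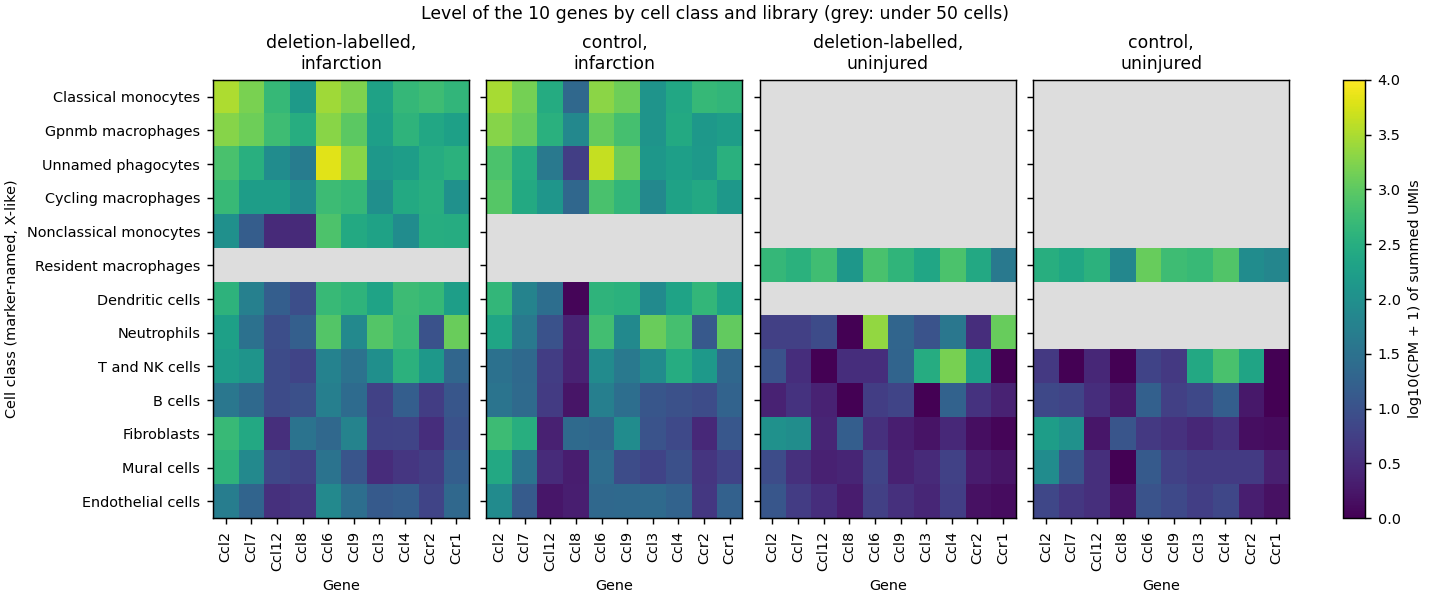
Level of each of the 10 genes (columns) in each cell class (rows) in the 4 libraries, coloured by log10(CPM + 1) of the summed UMIs, with grey for fewer than 50 cells. Classical monocytes and Gpnmb macrophages after infarction hold the highest Ccl2 and Ccl7, the unnamed phagocytes the highest Ccl6 (6574 CPM in the deletion-labelled and 4372 CPM in the control library), and neutrophils high Ccr1 and Ccl3.

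Ccl2, the chief chemoattractant of classical monocytes, stood at 3175 CPM (3154 to 3196) in classical monocytes of the deletion-labelled and 3011 CPM (2992 to 3030) of the control library after infarction. Gpnmb macrophages followed with 1847 CPM in the deletion-labelled and 1858 CPM in the control library. Neither pair of libraries differed by 1.5-fold, the size used throughout to call a difference, together with at least 10 UMIs in either sum. Together the mononuclear phagocytes held 84.3% of all Ccl2 UMIs in the deletion-labelled and 85.5% in the control library after infarction, against 38.1% in the deletion-labelled and 31.6% in the control uninjured library. In the uninjured libraries fibroblasts held the larger share, 52.0% in the deletion-labelled and 64.6% in the control heart. The counts thus came mainly from phagocytes after infarction and mainly from fibroblasts in the uninjured heart, although resident macrophages had a higher level per UMI than fibroblasts, with 463 CPM in the deletion-labelled and 323 CPM in the control uninjured library.

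Ccl7, another Ccr2 ligand, was distributed like Ccl2. It stood at 1592 CPM in classical monocytes of the deletion-labelled and 1443 CPM of the control library after infarction, and at 1304 CPM in Gpnmb macrophages of the deletion-labelled and 1193 CPM of the control library. Fibroblasts held 12.1% of its UMIs in each infarction library, against 57.6% in the deletion-labelled and 62.2% in the control uninjured library. Across 36 sums of a class in a library with at least 50 cells, the log2(CPM + 1) of Ccl7 and Ccl2 had a Pearson r of 0.94, the highest among the 10 genes together with that of Ccl6 and Ccr1 and of Ccl3 and Ccl4, at 0.94 each. These sums share libraries and depth, so the r is a description.

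Ccl12, a Ccr2 ligand found in the mouse, was nearly confined to phagocytes, which held between 94.9% and 98.7% of its UMIs in the 4 libraries. It stood at 568 CPM in Gpnmb macrophages of the deletion-labelled and 341 CPM of the control library after infarction. In resident macrophages it stood at 592 CPM in the deletion-labelled and 367 CPM in the control uninjured library. Unlike Ccl2, it was thus at about the same level in resident macrophages as in the macrophages present after infarction.

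Ccl8 was shared between Gpnmb macrophages, classical monocytes and fibroblasts. Gpnmb macrophages had 310 CPM in the deletion-labelled and 72.3 CPM in the control library after infarction. Fibroblasts had 32.6 CPM in the deletion-labelled and 23.5 CPM in the control library after infarction, against 14.9 CPM in the deletion-labelled and 10.2 CPM in the control uninjured library. Classical monocytes had 149 CPM, or 41.2% of the library's Ccl8 UMIs, in the deletion-labelled and 21.8 CPM, or 25.1%, in the control library after infarction. Fibroblasts held 10.9% of its UMIs in the deletion-labelled and 25.9% in the control library.

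**Figure D2:**
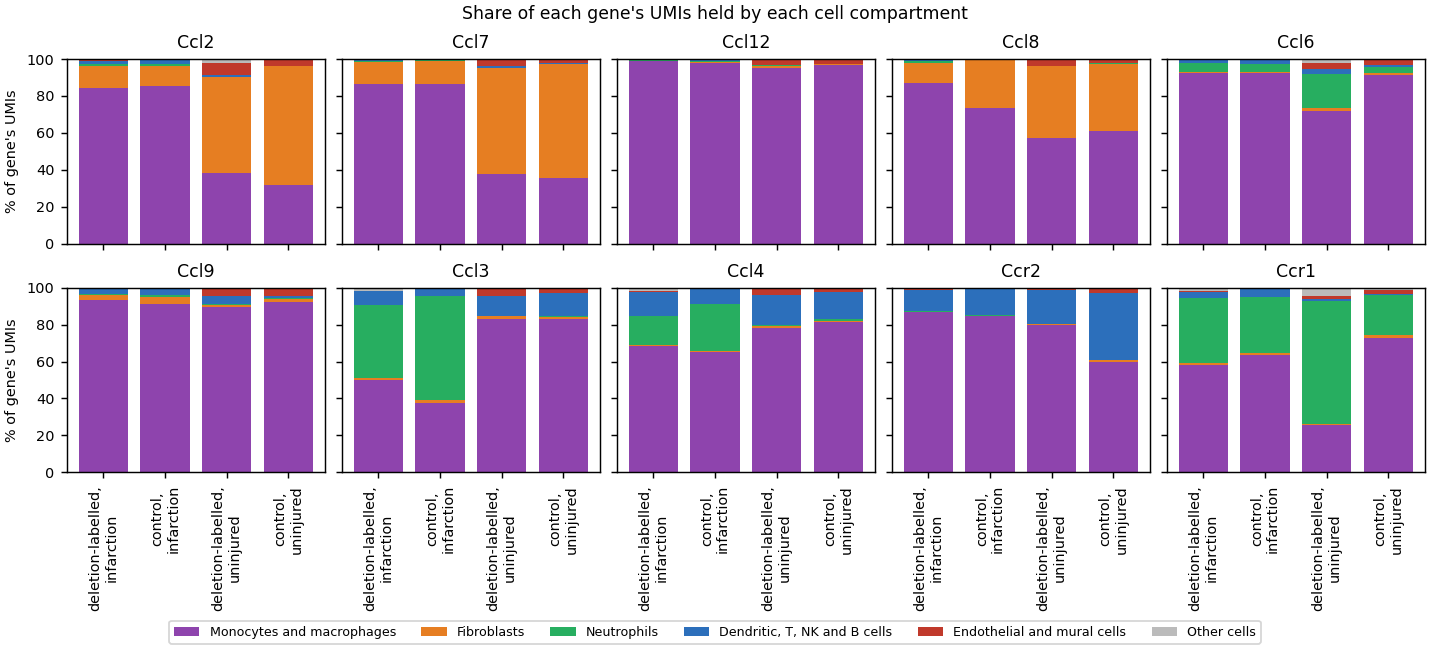
Percentage of each gene's UMIs in kept cells held by each cell compartment, with 1 bar per library. Phagocytes hold over 90% of Ccl12 UMIs in every library, fibroblasts hold most Ccl2 and Ccl7 UMIs in the uninjured libraries only, and neutrophils hold 39.8% of Ccl3 UMIs in the deletion-labelled and 56.4% in the control library after infarction.

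Ccl6, a mouse ligand of Ccr1, was highest in the unnamed phagocytes, with 6574 CPM in the deletion-labelled and 4372 CPM in the control library after infarction, followed by classical monocytes with 2733 CPM in the deletion-labelled and 2002 CPM in the control library. Neutrophils also held it, with 857 CPM in the deletion-labelled and 618 CPM in the control library after infarction, and with 2243 CPM (2103 to 2390) in the 105 neutrophils of the deletion-labelled uninjured library. Ccl9, a close relative encoded beside Ccl6, was low in neutrophils, with 75.5 CPM in the deletion-labelled and 79.3 CPM in the control library after infarction. In the unnamed phagocytes Ccl9 stood at 1955 CPM in the deletion-labelled and 1274 CPM in the control library, and in classical monocytes at 1655 CPM in the deletion-labelled and 1317 CPM in the control library. Neutrophils thus separated these neighbouring genes: they had 0.088 Ccl9 UMIs per Ccl6 UMI in the deletion-labelled and 0.128 in the control library, against 0.605 in classical monocytes of the deletion-labelled and 0.658 of the control library.

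Ccl3 and Ccl4, inflammatory chemokines made by many activated leukocytes, were high in neutrophils after infarction, though mononuclear phagocytes held the larger share of Ccl4 UMIs, 68.6% in the deletion-labelled and 65.0% in the control library. Neutrophils held 15.4% of Ccl4 UMIs in the deletion-labelled and 25.3% in the control library, at 522 CPM in the deletion-labelled and 669.8 CPM in the control library. Mononuclear phagocytes held 50.1% of Ccl3 UMIs in the deletion-labelled and 37.7% in the control library. Ccl3 stood at 863 CPM in neutrophils of the deletion-labelled and 1227 CPM of the control library, and at 204 CPM in classical monocytes of the deletion-labelled and 119 CPM of the control library. T and NK cells also held Ccl4, with 1511 CPM (1397 to 1631) in the deletion-labelled and 707 CPM (639 to 780) in the control uninjured library, from 66 cells in the deletion-labelled and 109 cells in the control heart. Resident macrophages had 736 CPM of Ccl4 in the deletion-labelled and 823 CPM in the control uninjured library.

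Of the receptors, Ccr2 marked monocytes, with 564 CPM in classical monocytes of the deletion-labelled and 475 CPM of the control library after infarction. Dendritic cells were close behind, with 476 CPM in the deletion-labelled and 449 CPM in the control library, and Gpnmb macrophages had 251 CPM in the deletion-labelled and 135 CPM in the control library. Ccr1 was highest in neutrophils, with 1203 CPM in the deletion-labelled and 1089 CPM in the control library after infarction and 1189 CPM in the deletion-labelled uninjured library. Classical monocytes had 434 CPM of Ccr1 in the deletion-labelled and 426 CPM in the control library after infarction. Resident macrophages were low for Ccr1, at 40.6 CPM in the deletion-labelled and 67.1 CPM in the control uninjured library. Neutrophils lacked Ccr2: their 9.01 CPM in the deletion-labelled and 12.2 CPM in the control library after infarction were under a ratio of 0.1 to the highest class, the mark used here for counts that free RNA in the droplets could give.

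Subclusters of the phagocytes after infarction differed in which ligand they held most of. Ccl2 and Ccl7 peaked in a subcluster led by Cxcl3, Pdpn and Il1rn, where Ccl2 reached 5385 CPM in the deletion-labelled and 4290 CPM in the control library and Ccl7 reached 3093 CPM in the deletion-labelled and 2195 CPM in the control library. Ccl12 peaked in a subcluster led by the interferon-induced genes Rsad2 and Ifit2, with 1014 CPM in the deletion-labelled and 811 CPM in the control library. Ccl6 peaked in one led by Ltc4s, Mlxipl and Marco, with 7727 CPM in the deletion-labelled and 5376 CPM in the control library. That subcluster took no name, and its best match was the resident macrophage list. The 10 genes took no part in the clustering.

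Ccl2 and Ccl7 tended to be found in the same cells after each cell was thinned to 2000 UMIs. Among classical monocytes with a Ccl2 UMI, 62.1% also held Ccl7 in the deletion-labelled and 63.3% in the control library, against 14.5% in the deletion-labelled and 8.95% in the control library of those without one. Among fibroblasts after infarction the shares were 45.3% with and 11.7% without Ccl2 in the deletion-labelled library, and 49.0% with and 15.6% without in the control library. In uninjured hearts they were 37.5% with and 3.9% without in the deletion-labelled library, and 41.4% with and 5.21% without in the control library. The pairing of Ccl2 and Ccl7 therefore appeared in both cell types and in all libraries that held them. In resident macrophages Ccl12 was paired with Ccl2 in the same way, in 53.3% with and 20.7% without Ccl2 in the deletion-labelled and 43.2% with and 20.3% without in the control uninjured library.

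Infarction was compared with the uninjured heart in fibroblasts, which numbered at least 923 cells in each of the 4 libraries. Ccl2 stood at 491 CPM in the deletion-labelled infarction library, against 106 CPM in the deletion-labelled uninjured library, a log2 ratio of 2.21 (2.15 to 2.27). In control hearts it stood at 555 CPM after infarction, against 166 CPM in the uninjured library, a log2 ratio of 1.74 (1.69 to 1.79). The fibroblasts compared lay in different clusters: a cluster led by Cthrc1 and Timp1 held 945 of 1384 fibroblasts in the deletion-labelled and 906 of 923 in the control library after infarction, against 10 of 1986 in the deletion-labelled and 15 of 1880 in the control uninjured library. In the cluster led by Inmt, Ccl2 ran the other way in deletion-labelled hearts, at 36.6 CPM after infarction against 102 CPM in the uninjured library, while in the cluster led by Sema3c it stood at 165 CPM after infarction against 88.5 CPM in the uninjured library. A change within a kind of fibroblast and a change of kinds cannot be told apart in the class sums. Ccl7 stood at 263 CPM after infarction, against 91.4 CPM in the uninjured library, in deletion-labelled hearts (log2 ratio 1.52), and at 316 CPM against 103 CPM in control hearts (log2 ratio 1.62). Ccl8 was higher by a log2 ratio of 1.13 in deletion-labelled and 1.21 in control hearts.

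All 10 genes were at least 1.5-fold higher after infarction in fibroblasts of both genotypes, where 21.1% of 15192 features in deletion-labelled and 25.7% of 14851 features in control hearts were. The median log2 ratio of the 10 was 2.33 in deletion-labelled and 2.02 in control hearts, while over all features it was -0.20 in deletion-labelled and -0.28 in control hearts. Of these genes, 7 had fibroblast levels under a ratio of 0.1 to the highest class of the same infarction library, so that free RNA from phagocytes or neutrophils could give them, and its part in the result was not tested. Ccl2, Ccl7 and Ccl8 were above that mark. The infarction libraries held many more phagocytes and neutrophils than the uninjured ones. The summed level of 9 general phagocyte markers in fibroblasts was 136.6 CPM in the deletion-labelled and 138.7 CPM in the control infarction library, against 213 CPM in the deletion-labelled and 152 CPM in the control uninjured library. That of 7 neutrophil markers was 463 CPM in the deletion-labelled and 607 CPM in the control infarction library, against 449 CPM in the deletion-labelled and 389 CPM in the control uninjured library.

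After thinning to 2000 UMIs per cell, Ccl2 was found in 22.7% of fibroblasts in the deletion-labelled and 33.2% in the control library after infarction, against 4.04% in the deletion-labelled and 3.74% in the control uninjured library. In B cells, which should lack it, it was found in 7.33% in the deletion-labelled and 5.95% in the control library after infarction. Without thinning, the shares of fibroblasts were 51.9% in the deletion-labelled and 70.8% in the control library after infarction, against 9.37% in the deletion-labelled and 8.19% in the control uninjured library. Median depth was 19951 UMIs for fibroblasts and 2667.5 for B cells in the deletion-labelled and 31878 for fibroblasts and 2348 for B cells in the control library after infarction. Ccl7 and Ccl8 were also found in larger shares of fibroblasts than of B cells in both infarction libraries. After thinning, the shares of fibroblasts with Ccl6, Ccl4 and Ccr2 were below those of B cells in both infarction libraries. For Ccr1 they were 1.40% of fibroblasts and 1.42% of B cells in the deletion-labelled library. In the control library they were 2.09% of fibroblasts and 2.62% of B cells. Without thinning, each of these genes was found in a larger share of fibroblasts than of B cells in both libraries. Thinning takes more UMIs from deep cells than from shallow ones. These shares therefore do not decide the part of free RNA, which was not tested.

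Ccl9 in fibroblasts stood at 59.96 CPM after infarction, against 1.15 CPM in the uninjured library, in deletion-labelled hearts (log2 ratio 5.71, 5.20 to 6.26), and at 86.4 CPM against 2.73 CPM in control hearts (log2 ratio 4.99, 4.6 to 5.39). Its level carried the free RNA mark, and the part of free RNA was not tested. Fibroblasts had 2.76 Ccl9 UMIs per Ccl6 UMI (2.54 to 3.01) in the deletion-labelled and 4.18 (3.83 to 4.57) in the control library after infarction. The other classes ranged from 0.088 to 1.02 after infarction, and fibroblasts of uninjured hearts had 0.438 in the deletion-labelled and 0.757 in the control library. The thinned share of fibroblasts with Ccl9 was 6.91% in the deletion-labelled and 13.4% in the control library after infarction, against 5.67% of B cells in the deletion-labelled and 5.48% in the control library.

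Ccl2 in fibroblasts of uninjured hearts came from few cells. Only 46 of 1986 fibroblasts (2.32%, 1.70 to 3.08) in the deletion-labelled and 36 of 1880 (1.91%, 1.35 to 2.64) in the control library held 10 or more Ccl2 UMIs, and they held 91.6% of the fibroblast Ccl2 UMIs in the deletion-labelled and 92.9% in the control library. After infarction such cells were 286 of 1384 (20.7%, 18.6 to 22.9) in the deletion-labelled and 271 of 923 (29.4%, 26.4 to 32.4) in the control library. These shares rise with the depth per cell, which was greater after infarction.

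**Figure D3:**
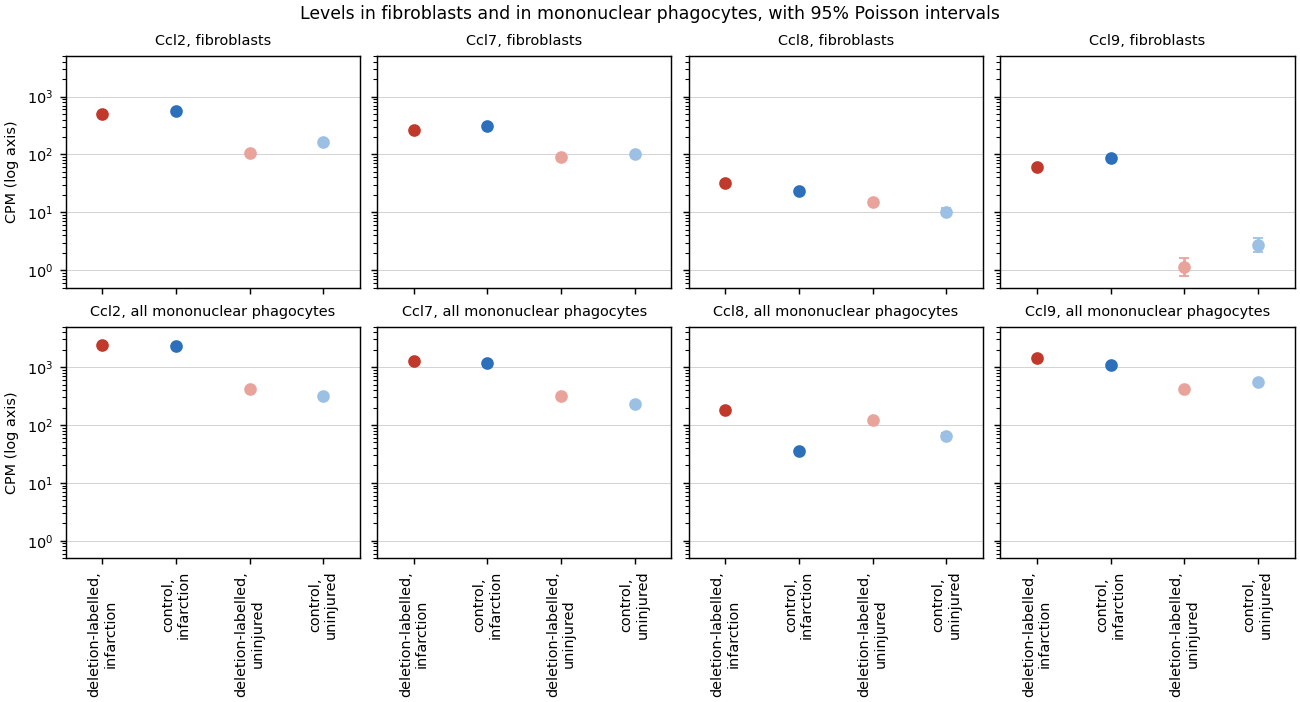
Levels of Ccl2, Ccl7, Ccl8 and Ccl9 in CPM (log axis) in fibroblasts and in all mononuclear phagocytes of the 4 libraries; points are summed UMIs of 1 library and bars 95% Poisson intervals, often smaller than the point. Fibroblast Ccl9 lies at 59.96 CPM and 86.4 CPM after infarction and under 3 CPM in both uninjured libraries.

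In the sum of all mononuclear phagocytes, 7 of the 10 genes differed by at least 1.5-fold between infarction and uninjured deletion-labelled hearts (6 higher, 1 lower), where 54.0% of all features did, and 9 did in control hearts (6 higher, 3 lower), where 60.2% did. Neither count stands far from that background, but the direction did: 18.2% of features in deletion-labelled and 18.8% in control hearts were higher. Ccl2 stood at 2393 CPM after infarction, against 421 CPM in the uninjured library, in deletion-labelled hearts (log2 ratio 2.51), and at 2334 CPM against 316 CPM in control hearts (log2 ratio 2.88). Ccl7, Ccr1, Ccr2, Ccl6 and Ccl9 were also higher in both genotypes, with log2 ratios from 0.69 for Ccr2 to 3.18 for Ccr1 in deletion-labelled hearts, and from 0.74 for Ccl6 to 2.40 for Ccl7 in control hearts. Ccl4 was lower in both, with a log2 ratio of -0.81 in deletion-labelled and -1.70 in control hearts. Ccl3 and Ccl8 were lower by that size in control hearts only (log2 ratios of -1.99 and -0.90), while Ccl12 stayed within 1.5-fold in both. Since one side held resident macrophages and the other monocytes and Gpnmb macrophages, a change within a cell type and a change of cell types cannot be told apart here.

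The other genes of the pathway, 24 further CC chemokines, receptors and scavenging receptors, moved in both directions in fibroblasts after infarction. In deletion-labelled hearts 7 of 14 with enough UMIs were higher and 5 lower, and in control hearts 8 of 16 were higher and 6 lower. Over all features, 21.1% in deletion-labelled and 25.7% in control hearts were higher. The lowest ratios belonged to atypical receptors that bind chemokines without classical signalling. Ackr2, which clears inflammatory CC chemokines, stood at 2.73 CPM after infarction, against 22.1 CPM in the uninjured library, in deletion-labelled hearts, and at 0.165 CPM (5 UMIs) against 21.6 CPM in control hearts. Ackr1 was lower in both too, with log2 ratios of -2.17 in deletion-labelled and -3.85 in control hearts. Ccl17 was among the highest, with log2 ratios of 2.26 in deletion-labelled and 4.07 in control hearts, the second over 3 UMIs in the uninjured library.

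The deletion-labelled and control hearts were compared within each class. In classical monocytes after infarction 4 of the 10 genes, Ccl8, Ccl4, Ccl3 and Ccl12, were at least 1.5-fold higher in the deletion-labelled library and none was lower, where 12.3% of 12797 features differed and 8.35% were higher. Ccl8 differed most, with 149 CPM (145 to 154) in the deletion-labelled and 21.8 CPM (20.2 to 23.5) in the control library, a log2 ratio of 2.78 (2.66 to 2.90). Few cells held most of these UMIs, and the interval does not measure the spread between cells. Ccl12 stood at 476 CPM in the deletion-labelled and 283 CPM in the control library (log2 ratio 0.75), Ccl4 at 454 CPM in the deletion-labelled and 251 CPM in the control library (0.85), and Ccl3 at 204 CPM in the deletion-labelled and 119 CPM in the control library (0.78). Ccl2, Ccl7 and Ccr1 were nearly level, with log2 ratios of 0.08 (0.06 to 0.09), 0.14 (0.12 to 0.16) and 0.03 (-0.01 to 0.06). With each library clustered alone the Ccl8 log2 ratio was 0.94, with doublets kept it was 1.93 and with the 10 genes allowed in the clustering 1.88. The Ccl12 ratio was 0.24 with the 10 genes allowed in the clustering and that of Ccl3 was 0.54 with doublets kept, both within 1.5-fold. Control values of Ccl3 carried the free RNA mark, as neutrophils of that library stood at 1227 CPM. When the phagocytes were clustered again, a subcluster led by Dmkn and Met took the classical monocyte name. Its Ccl8 was not higher in the deletion-labelled library, at 2.28 CPM in the deletion-labelled and 4.47 CPM in the control library.

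Gpnmb macrophages after infarction repeated the direction, with 5 genes higher in the deletion-labelled library (Ccl8, Ccr2, Ccl6, Ccl12 and Ccl3) and none lower, where 14.8% of 12093 features differed and 10.4% were higher. Ccl8 stood at 310 CPM (301 to 320.0) in the deletion-labelled and 72.3 CPM (68.4 to 76.5) in the control library, a log2 ratio of 2.10. Ccr2 stood at 251 CPM in the deletion-labelled and 135 CPM in the control library (log2 ratio 0.89), and Ccl6 at 1919 CPM in the deletion-labelled and 1144 CPM in the control library (0.75). Ccl2 was level, with a log2 ratio of -0.01 (-0.03 to 0.02). Under other settings the log2 ratio was as low as 0.46 for Ccr2, 0.49 for Ccl6 and 0.34 for Ccl3, all within 1.5-fold. The summed level of the 7 Gpnmb macrophage markers in this class was 14010 CPM in the deletion-labelled and 19840 CPM in the control library, and that of the 7 resident macrophage markers was 1303 CPM in the deletion-labelled and 799 CPM in the control library. The part of these marker differences in the result was not tested. At 2-fold, Ccl8 was the 1 gene past the limit in each of these classes, and with each library clustered alone 8 genes were past 1.5-fold in classical monocytes. The share of all features was not counted at these settings, so these numbers have no background beside them.

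The unnamed phagocytes gave 5 higher genes and none lower (Ccl8, Ccr2, Ccl12, Ccl9 and Ccl6), where 15.5% of features differed and 10.1% were higher. Their Ccl8 stood at 47.2 CPM (41.3 to 53.7) in the deletion-labelled and 4.49 CPM (2.88 to 6.68) in the control library, the second marked as possible free RNA. Cycling macrophages, with 83 cells in the deletion-labelled and 101 in the control library, had Ccl8 higher (log2 ratio 2.07) and Ccl2 and Ccl7 lower (-0.84 and -0.66), where 15.6% of features differed. Of the 10 genes, Ccl8 alone was at least 1.5-fold higher in the sums of all 4 of these classes. Few cells gave most of these counts. In the deletion-labelled library the top 5% of cells held 97.0% of the Ccl8 UMIs of the unnamed phagocytes. In cycling macrophages of that library they held 92.0%.

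**Figure D4:**
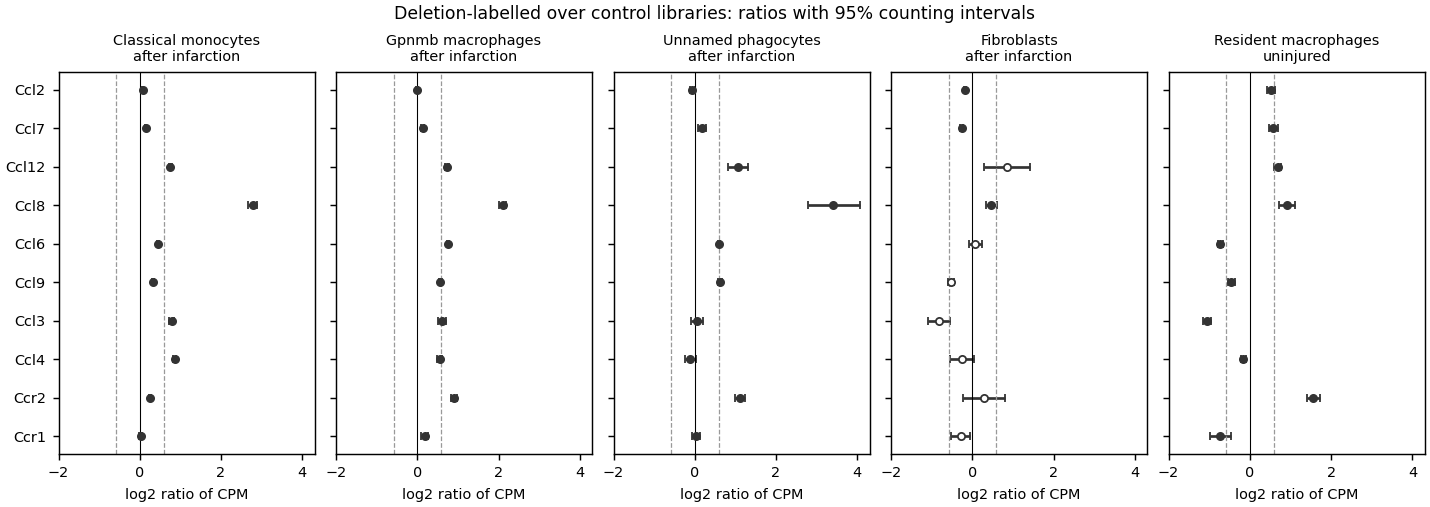
Log2 ratio of CPM, deletion-labelled over control library, for the 10 genes in 4 classes after infarction and in resident macrophages of uninjured hearts; bars are 95% counting intervals, dashed lines mark 1.5-fold, and open points carry the free RNA mark in both libraries. Ccl8 lies right of the dashed line in each phagocyte class shown, at 2.78 in classical monocytes and 2.10 in Gpnmb macrophages, and Ccl2 lies near 0 in the 3 phagocyte classes after infarction.

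The Ccl8 difference came from a small number of rich cells. Classical monocytes with 10 or more Ccl8 UMIs were 48 of 1473 (3.26%, 2.41 to 4.3) in the deletion-labelled and 18 of 1720 (1.05%, 0.62 to 1.65) in the control library, and they held 93.6% of the Ccl8 UMIs of the class in the deletion-labelled and 79.7% in the control library. The richest cell held 577 Ccl8 UMIs in the deletion-labelled and 94 in the control library. Among Gpnmb macrophages such cells were 79 of 657 (12.0%, 9.64 to 14.8) in the deletion-labelled and 37 of 853 (4.34%, 3.07 to 5.93) in the control library. Both the share of rich cells and their counts were thus higher in the deletion-labelled library, at median depths of 15032 UMIs in the deletion-labelled and 13870.5 UMIs in the control library for classical monocytes.

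Across phagocyte subclusters with at least 50 cells in each infarction library, Ccl8 was higher in the deletion-labelled library in 9 of 13, lower in 1, within 1.5-fold in 2 and at 0 UMIs in the control library in 1. In the subcluster led by Cd72 and Fcrls it stood at 353 CPM in the deletion-labelled and 21.0 CPM in the control library, and in that led by Pianp and Gdf3 at 346 CPM in the deletion-labelled and 17.3 CPM in the control library. In the interferon-induced subcluster the gap was smaller, 378 CPM in the deletion-labelled and 153 CPM in the control library. In the subcluster led by Dmkn and Met, which took the classical monocyte name, Ccl8 was low. It stood at 2.28 CPM in the deletion-labelled and 4.47 CPM in the control library. The subclusters led by Cd72, by Pianp and by Rsad2 took no name. Of 14 subclusters, Ccl3 was higher in 9, Ccl12 in 8, Ccl4 in 8, Ccl6 in 7 and Ccr2 in 3, with none lower. Ccl9 was higher in 2 and Ccr1 in 1, also with none lower. Ccl7 was higher in 3 and lower in 1, while Ccl2 was higher in 1 and lower in 1. Subclusters were also unequal in size: the one led by Cd72 held 374 cells in the deletion-labelled and 167 in the control library, and that led by Ctsk and Gpnmb held 126 cells in the deletion-labelled and 339 in the control library.

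**Figure D5:**
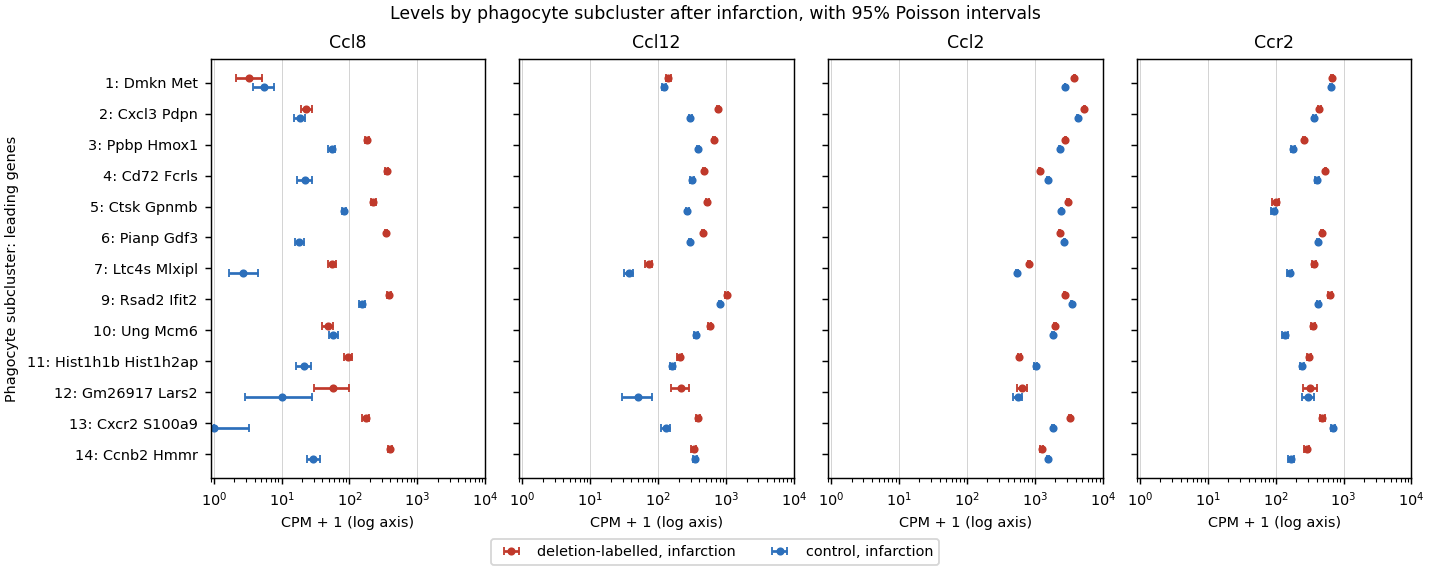
Levels of Ccl8, Ccl12, Ccl2 and Ccr2 (CPM + 1, log axis) in 13 of the 14 phagocyte subclusters compared after infarction, named by 2 leading genes, with 95% Poisson intervals; red is the deletion-labelled and blue the control library. Red points of Ccl8 lie far to the right in subclusters such as that led by Cd72 (353 CPM in the deletion-labelled and 21.0 CPM in the control library), while those of Ccl2 lie on either side of the blue ones.

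Ccl8 and Ccl12 are neighbours on chromosome 11, and both were higher in the deletion-labelled library in classical monocytes, Gpnmb macrophages, the unnamed phagocytes and, in uninjured hearts, resident macrophages. The 110 bases before their starts are therefore shown from the RefSeq promoter table of GRCm38.p6, plus strand, with the letters TATAAA in capitals.
Ccl8, chr11:82115075-82115184: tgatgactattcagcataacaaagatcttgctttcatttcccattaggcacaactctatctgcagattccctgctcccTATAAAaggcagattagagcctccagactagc
Ccl12, chr11:82101735-82101844: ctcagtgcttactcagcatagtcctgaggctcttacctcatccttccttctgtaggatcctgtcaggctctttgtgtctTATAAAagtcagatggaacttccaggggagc

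These letters lay 32 to 27 bases before the start in Ccl8 and 31 to 26 bases before it in Ccl12. Of the 10 genes, 7 had an entry in the table, and 3 of these held TATAAA on either strand within 250 bases before the start (Ccl8, Ccl12 and Ccl9), as did 12.4% of 32851 promoters. The match is a description of the letters and no evidence of binding.

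In fibroblasts after infarction 2 of the 10 genes differed by 1.5-fold between genotypes, where 18.3% of 14805 features did: Ccl12 was higher (2.43 CPM in the deletion-labelled and 1.36 CPM in the control library) and Ccl3 lower (5.4 CPM in the deletion-labelled and 9.50 CPM in the control library), both with the free RNA mark. Ccl2, Ccl7 and Ccl8 had log2 ratios of -0.18 (-0.21 to -0.15), -0.26 (-0.31 to -0.22) and 0.47 (0.33 to 0.61), within 1.5-fold. The libraries differed in their fibroblast clusters. The cluster led by Cthrc1 and Timp1 held 945 cells in the deletion-labelled and 906 in the control library, while clusters led by Inmt and by Sema3c, which made up most fibroblasts of the uninjured hearts, held 184 and 255 cells in the deletion-labelled library and fewer than 50 in the control library. Ccl2 stood at 36.6 CPM in the first and 165 CPM in the second of these in the deletion-labelled infarction library. Within the Cthrc1 cluster Ccl2 was level, at 562 CPM (554 to 571) in the deletion-labelled and 559 CPM (550 to 567) in the control library, and Ccl9 stood at 68.3 CPM in the deletion-labelled and 87.0 CPM in the control library.

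Among the other pathway genes, fibroblasts after infarction had 5 of 15 higher and 3 lower in the deletion-labelled library, where 18.3% of all features differed. Ackr3, which takes up Cxcl12, stood at 52.6 CPM in the deletion-labelled and 13.2 CPM in the control library, and Ackr4 at 14.3 CPM in the deletion-labelled and 1.89 CPM in the control library. Ccl5 was lower, with 5.37 CPM in the deletion-labelled and 13.4 CPM in the control library. In classical monocytes 3 of 9 were higher and 1 lower, where 12.3% of all features differed and 8.35% were higher. Ccl24, an eosinophil attractant, stood at 202 CPM in the deletion-labelled and 76.6 CPM in the control library. In Gpnmb macrophages 4 of 9 were higher and none lower, where 14.8% of all features differed and 10.4% were higher. The higher genes included Ccrl2, a receptor that does not signal, with 117 CPM in the deletion-labelled and 51.6 CPM in the control library.

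In uninjured hearts, resident macrophages differed between genotypes in 6 of the 10 genes, where 17.8% of 11682 features did. Ccr2, Ccl8 and Ccl12 were higher in the deletion-labelled library, and Ccl3, Ccl6 and Ccr1 were lower. Ccr2 differed most, with 257 CPM (243 to 272) in the deletion-labelled and 87.2 CPM (79.2 to 95.8) in the control library, a log2 ratio of 1.56 (1.40 to 1.72). Ccl8 stood at 129.5 CPM in the deletion-labelled and 69.1 CPM in the control library (log2 ratio 0.91, 0.71 to 1.10), and Ccl12 at 592 CPM in the deletion-labelled and 367 CPM in the control library (0.69). Ccl3 stood at 236 CPM in the deletion-labelled and 488 CPM in the control library (log2 ratio -1.05), and Ccl6 at 703 CPM in the deletion-labelled and 1169 CPM in the control library (-0.73). Ccl3 thus ran the other way from its direction in the monocytes of infarcted hearts.

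Resident macrophages with a Ccr2 UMI after thinning were 23.7% in the deletion-labelled and 10.0% in the control library, against 0.671% of B cells in the deletion-labelled and 0.275% in the control library. Median depths in the deletion-labelled library were 10448 UMIs for resident macrophages and 4047 UMIs for B cells, and in the control library 7748 UMIs for resident macrophages and 3163 UMIs for B cells. Cells with 10 or more Ccr2 UMIs were 46 of 375 (12.3%, 9.12 to 16.0) in the deletion-labelled and 13 of 551 (2.36%, 1.26 to 4.0) in the control library. Cells with Ccl8 rarely held Ccr2: 6.45% of 31 (0.79 to 21.4) in the deletion-labelled and 0 of 37 (0 to 9.49) in the control library did, against 25.3% of the cells without Ccl8 in the deletion-labelled and 10.8% in the control library. The 7 classical monocyte markers summed to 8.80 CPM in this class in the deletion-labelled and 7.96 CPM in the control library, and the 7 dendritic cell markers to 32.9 CPM in the deletion-labelled and 38.6 CPM in the control library. The 7 resident macrophage markers summed to 4100 CPM in the deletion-labelled and 5420 CPM in the control library, and the 8 mural cell markers to 219.6 CPM in the deletion-labelled and 37.8 CPM in the control library; the part of these markers in the result was not tested. Within the largest subcluster of this class, led by Mgl2 and Cmah, Ccr2 stood at 266 CPM in the deletion-labelled and 86.8 CPM in the control library, as large a gap as in the whole class.

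Fibroblasts of uninjured hearts differed between genotypes in 4 of the 10 genes, where 17.2% of 14415 features did, with Ccl12 higher and Ccl2, Ccl3 and Ccl9 lower in the deletion-labelled library. Ccl2 stood at 106 CPM in the deletion-labelled and 166 CPM in the control library (log2 ratio -0.65, -0.72 to -0.57). This gap was not seen within the larger clusters: Ccl2 stood at 102 CPM in the deletion-labelled and 113 CPM in the control library in the Inmt cluster, and at 88.5 CPM in the deletion-labelled and 69.4 CPM in the control library in the Sema3c cluster. Of the 3411 Ccl2 UMIs of control fibroblasts, the Inmt cluster held 1284 and the Sema3c cluster 622, and the remainder lay in the 15 cells of the Cthrc1 cluster, the only other fibroblasts of that library. Ccl12, Ccl3 and Ccl9 carried the free RNA mark in both libraries.

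Other leukocytes also differed between genotypes after infarction. In dendritic cells 3 of the 10 genes were higher and 1 lower in the deletion-labelled library, where 12.3% of features differed, and 2 of these were above the free RNA mark in the deletion-labelled library. Ccl4 stood at 555 CPM in the deletion-labelled and 205 CPM in the control library (log2 ratio 1.44, 1.35 to 1.53), and Ccl3 at 206 CPM in the deletion-labelled and 79.8 CPM in the control library (1.37). In neutrophils, the class with the most cells after infarction, 1 gene differed by 1.5-fold, where 16.8% of features did: Ccl8, at 15.1 CPM in the deletion-labelled and 1.46 CPM in the control library, under the free RNA mark in both. Neutrophil Ccl3 stood at 863 CPM in the deletion-labelled and 1227 CPM in the control library (log2 ratio -0.51), and neutrophil Ccr1 at 1203 CPM in the deletion-labelled and 1089 CPM in the control library (0.14). Ccl3 and Ccl4 were thus higher in classical monocytes and dendritic cells of the deletion-labelled library and within 1.5-fold in neutrophils.

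The genes whose levels followed each member most closely were sought over the same 36 sums, among 7392 genes that reached 50 CPM in at least 1 sum. For Ccl2 and Ccl7 they included Mt1, a metallothionein, with a Pearson r of 0.89 for Ccl2 and 0.83 for Ccl7, and Hmox1, heme oxygenase, with 0.84 for Ccl7. For Ccl12 they were Ms4a7 (0.95) and C3ar1 (0.94), both macrophage genes. Ccl8 had weaker partners, Snx6 and Rab3il1, at 0.80 each. For Ccl6 they were Wfdc17 (0.97) and Lyz2 (0.96), and for Ccl9 Msr1 and Cd68 at 0.95 each. Ccl3 was followed by Fcer1g (0.90) and Otulinl (0.89), and Ccl4 by Otulinl (0.93) and Fyb (0.91). Of the receptors, Ccr1 was followed by Il1rn and Bst1 at 0.97 each, and for Ccr2 Dok2 is given, at 0.94. The sums share libraries and many of them hold free RNA, so these values only describe likeness of pattern.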

How the data were processed

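RNA of single cells was measured with 10x Chromium 3′ v3.1 chemistry in 4 libraries, 1 per group. The deposited matrices hold UMI counts per gene and cell barcode, made by the authors with Cell Ranger 5.0.1 on mm10, per the submitters' processing notes and the file headers; whether introns were counted is not given in the sources used here. Barcodes with under 500 UMIs, under 200 genes or over 20% mitochondrial UMIs were left out, as were the barcodes with the highest score against simulated doublets, 0.8% of a library for each 1000 barcodes. The kept cells were clustered together (scanpy 1.11.5, leidenalg 0.10.2, numpy 2.4.6, scipy 1.17.1; 2000 variable genes without the 10 members, 30 components, 20 neighbours, resolution 1.0), with mononuclear phagocytes clustered again. Of 29 clusters, 26 were named from marker lists and 3 were not. All class names, also those within the phagocytes, came from this first clustering. The second clustering gave 18 phagocyte subclusters, and many of them took no name. Its subcluster with the Gpnmb name held 465 cells, against 1518 cells in the Gpnmb class used for the sums. The naming limits included a mean difference in share of cells of 0.1, and 3 markers found in 20% of the cells. Names within the phagocytes also needed a marker of the list among the 10 leading genes. The limits were set after the clusters were seen. The 10 members and all gene lists were chosen with earlier results of these data known. Of 25 other pathway genes, Ccl27a was left out because 3 features carry its symbol.

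UMIs were summed per class and library where at least 50 cells were present, and given as CPM with exact Poisson intervals. Log2 ratios of CPM carry an exact conditional binomial interval, and shares of cells an exact Clopper-Pearson one. A count of 0 was set to 3 UMIs in a ratio, where the plan had raised every count under 3. A difference was called at 1.5-fold or more with at least 10 UMIs in either sum, and this procedure was tested on simulated data. The simulated counts held no spread between cells or libraries, so they could not show what such spread does to the calls. For shares of cells each cell was thinned to 2000 UMIs and shallower cells were left out. The named genes were all members, the 3 highest and 3 lowest ratios of the pathway list, and 2 most similar genes per member; a few results of these rules are not reported here. Since the numbers of animals are not in the labels, the intervals measure counting error only. Alternatives changed the scaling, cell weights, doublet and mitochondrial limits, clustering, fold and UMI minimum.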

Additional observations from a re-analysis of the deposited data

Results flagged for a closer look

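Of the genotype ratios compared between infarcted and uninjured hearts, 5 pointed in opposite directions beyond 1.5-fold. The share of all features that did so was not counted, so this number has no background beside it. None of these differences could be tested, with 1 library per group. Ccl3 in all mononuclear phagocytes had a log2 ratio of deletion-labelled over control of 0.65 after infarction and -1.07 in uninjured hearts, a difference of 1.72, between populations made of different cell classes. Ccl2 in mural cells had 0.67 after infarction and -3.53 in uninjured hearts, a difference of 4.20; the uninjured sums held 23 UMIs in the deletion-labelled and 70 in the control library, and 2.04% of the thinned mural cells in the deletion-labelled and 1.28% in the control library held one. In endothelial cells Ccl2 had -0.76 after infarction and 0.82 in uninjured hearts (difference -1.58), Ccl6 had 1.80 after infarction and -1.0 in uninjured hearts (difference 2.80), and Ccr2 had 0.67 after infarction and -1.12 in uninjured hearts (difference 1.79). All endothelial values of these 3 genes were under a ratio of 0.1 to the highest class of their library, the level that free RNA could give, and its part was not tested.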

How the results depend on the processing

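Alternatives were run for 9 comparisons, those of fibroblasts, all mononuclear phagocytes, classical monocytes, Gpnmb macrophages and resident macrophages; counts in other classes had none. In these the count of members past the fold was within 1.5 times its reported value, with the following exceptions. At 2-fold it was 1 in classical monocytes, 1 in Gpnmb macrophages and 0 in fibroblasts between genotypes after infarction, and 2 in resident macrophages of uninjured hearts; a larger fold admits fewer genes by construction. With each library clustered alone it was 8 in classical monocytes, which then held 733 cells in the deletion-labelled and 881 in the control library, and the cause was not tested. In that setting the control infarction library gave no Gpnmb class, so no value is given. There 314 of its cells took the resident macrophage name instead. The share of all features past the fold was not counted under the alternatives, so the counts given for them have no background. Of 57 called log2 ratios, all kept their sign under every other setting in which they had a value and 44 stayed past 1.5-fold throughout. Ccl8 ranged from 0.94 to 2.82 in classical monocytes and from 1.98 to 2.58 in Gpnmb macrophages, and Ccr2 in resident macrophages from 1.43 to 1.60. Those under 1.5-fold in some setting included Ccl12 (0.24 to 1.20) and Ccl3 (0.54 to 1.14) in classical monocytes, Ccr2 in Gpnmb macrophages (0.46 to 0.89) and Ccl2 in uninjured fibroblasts (-0.67 to -0.25). Fibroblasts of the main infarction cluster alone, an alternative chosen after seeing the data, gave a count within 1.5 times the reported one. Comparisons of resident macrophages after infarction were not run. Under the main settings only 16 cells in the deletion-labelled library and 1 in the control library carried the name. No paired analysis was possible because the 4 libraries are 1 to a group, and leaving out a replicate was likewise impossible. For 7 of the 10 genes, fibroblast levels after infarction carried the free RNA mark, and the part of free RNA was not tested.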
